A study of Mus musculus with 16 samples.

Results

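The 35 genes described here encode proteins that repair DNA double-strand breaks, and they were read in 15 mouse mammary tumors out of 27179 genes in the count table. They were chosen by name, matched through their Entrez identifiers, and sorted into 4 routes: 9 genes of alternative end joining, 14 of homologous recombination with the Fanconi anemia pathway, 8 of classical end joining and 4 checkpoint kinases. All 35 had enough counts to be tested, with 21 to 4049 counts per gene and tumor. The tumors came from transplants of 1 Trp53 null mammary tumor family, named family F, placed in the mammary glands of BALB/cJ females aged 8 to 10 weeks, and mice were randomised once a tumor measured 65 to 100 mm3. Bulk RNA was taken 7 days after treatment, from 3 tumors in each of 5 groups.

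The TGFbi+RT+anti-PD-L1 group received 3 treatments: IPW-5371, a small-molecule inhibitor of transforming growth factor beta (TGFβ) signalling given daily at 20 mg/kg, a single focal dose of 10 Gy of radiation, and anti-PD-L1, an antibody that blocks an immune checkpoint ligand, given weekly at 10 mg/kg. The TGFbi+RT group received the inhibitor and the radiation, the TGFbi group the inhibitor, and the RT group the radiation, at the same doses. The Sham group is the control, for which the labels list a control immunoglobulin at 25 mg/kg 3 times per week without stating whether other groups received it. Agents were first given 24 hours before irradiation. All 5 groups share the Trp53 null genotype, the strain and the tumor family, so the comparisons describe 1 transplantable tumor line without p53.

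A double-strand break can be rejoined in several ways. Classical end joining holds the ends with the Ku proteins and DNA-PK and ligates them with little processing, while homologous recombination resects the ends and copies the intact sister chromatid, which limits it to the S and G2 phases of the cell cycle. Alternative end joining also starts from resected ends, anneals short stretches of matching bases through DNA polymerase theta, and leaves deletions. The ATM and ATR kinases detect breaks and stalled forks, and with CHEK1 and CHEK2 they hold the cell cycle while repair proceeds. TGFβ signalling has been reported to sustain homologous recombination and classical end joining in tumor cells, and its loss to favour alternative end joining, so the levels of these genes under TGFβ inhibition and radiation are the question taken up here.

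Promoter windows are shown for 5 of the genes. Bard1, Brip1, Polq and Xrcc6 have a match to a motif of cell cycle genes defined below, and Dclre1c has none. Most of the repair genes were low in the same tumors as cell cycle genes, as described below, while Dclre1c was highest in 2 of those tumors. The part of these motifs in the levels was not tested. Each window holds 250 bases before and 50 bases after the transcription start, from the RefSeq table of build GRCm38.p6, in which 28 of the 35 genes had an entry, with 32 windows in all. Capitals mark matches on either strand to TTTNNCGC, a core of the sites bound by E2F factors, which drive S phase genes, or to TTTGAA, the cell cycle homology region (CHR) found in genes of the G2 and M phases. The 2 motifs do not overlap in these windows. The Bard1 window lies at chr1:71102923-71103222 on the minus strand, the Brip1 window at chr11:86201144-86201443 on the minus strand, the Polq window at chr16:37011536-37011835 on the plus strand, the Xrcc6 window at chr15:82016119-82016418 on the plus strand and the Dclre1c window at chr2:3423881-3424180 on the plus strand.
Bard1: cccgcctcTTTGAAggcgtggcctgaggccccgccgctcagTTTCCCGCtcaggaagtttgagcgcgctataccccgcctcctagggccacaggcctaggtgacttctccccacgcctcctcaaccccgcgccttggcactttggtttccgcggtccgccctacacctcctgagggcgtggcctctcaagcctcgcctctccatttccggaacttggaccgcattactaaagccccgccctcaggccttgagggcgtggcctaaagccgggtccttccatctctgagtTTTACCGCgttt
Brip1: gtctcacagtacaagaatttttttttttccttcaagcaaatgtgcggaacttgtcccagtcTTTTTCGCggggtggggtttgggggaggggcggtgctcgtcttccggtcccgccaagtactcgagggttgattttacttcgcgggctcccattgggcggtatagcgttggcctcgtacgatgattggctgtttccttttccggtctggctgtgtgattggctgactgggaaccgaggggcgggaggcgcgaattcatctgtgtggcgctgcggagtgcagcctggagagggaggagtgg
Polq: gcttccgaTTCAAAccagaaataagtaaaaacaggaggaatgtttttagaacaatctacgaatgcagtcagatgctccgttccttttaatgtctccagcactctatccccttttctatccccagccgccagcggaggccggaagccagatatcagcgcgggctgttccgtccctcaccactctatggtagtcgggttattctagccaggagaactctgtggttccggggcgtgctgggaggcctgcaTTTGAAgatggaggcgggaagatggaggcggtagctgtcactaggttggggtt
Xrcc6: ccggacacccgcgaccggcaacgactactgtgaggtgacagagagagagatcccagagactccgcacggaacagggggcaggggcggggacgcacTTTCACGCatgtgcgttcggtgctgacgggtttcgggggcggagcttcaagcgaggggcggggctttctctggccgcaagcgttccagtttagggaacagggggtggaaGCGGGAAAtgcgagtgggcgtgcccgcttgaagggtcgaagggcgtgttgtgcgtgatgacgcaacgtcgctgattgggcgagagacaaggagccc
Dclre1c: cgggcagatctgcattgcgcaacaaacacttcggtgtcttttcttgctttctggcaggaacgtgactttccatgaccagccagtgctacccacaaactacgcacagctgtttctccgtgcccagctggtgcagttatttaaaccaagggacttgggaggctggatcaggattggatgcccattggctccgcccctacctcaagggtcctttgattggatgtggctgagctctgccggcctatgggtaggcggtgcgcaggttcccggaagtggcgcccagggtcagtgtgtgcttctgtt

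TTTNNCGC matched at least 1 window of 6 of the 28 genes with an entry, which are Bard1, Brip1, Xrcc6, Chek2, Brca2 and Lig1, or 21.4%, against 5.17% of all 32851 promoter windows in the table. TTTGAA matched 2 of the 28, Bard1 and Polq, or 7.14%, against 17.9% of all windows. CCAAT, the box bound by NF-Y, matched 14 of the 28, or 50%, against 37.4% of all windows, and 3 of these boxes lie in the Dclre1c window. In Bard1 the TTTNNCGC matches cover bases 42 to 49 and 289 to 296 of the window, counted from its 5′ end, and in Polq the TTTGAA matches cover bases 9 to 14 and 248 to 253. The shares of the 28 count genes with a match in any of their windows, while the shares of all windows count single windows, so the units differ. These are matches of letters only.

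Library totals were 11002869 to 17184023 counts per tumor (median 13302488). The labels mark the libraries of TGFbi replicate 3 and TGFbi+RT replicate 3 as resubmitted. Trp53 measured 75.3, 64.0 and 109.5 CPM (read counts scaled to library size) in the TGFbi+RT+anti-PD-L1 tumors, 82.1, 96.6 and 63.9 in TGFbi+RT tumors, 79.0, 92.7 and 80.9 in TGFbi tumors, 74.2, 77.1 and 79.6 in RT tumors and 79.7, 85.8 and 86.0 in Sham tumors, and 1 count per gene does not show which part of the null gene these reads came from. All 10 epithelial markers were detected in every tumor. The 15 leukocyte markers summed to 421 to 3102 CPM in TGFbi+RT+anti-PD-L1, 341 to 1819.6 in TGFbi+RT, 172 to 382 in TGFbi, 109 to 629 in RT and 76.3 to 285 in Sham tumors, and the highest sums belonged to TGFbi+RT+anti-PD-L1 replicate 2 and TGFbi+RT replicate 3. Cd3e, Cd3d, Cd8a, Gzmb, Nkg7 and Cd79a, which mark lymphocytes, were at 0 in 1 to 6 of the 15 tumors. The 8 fibroblast markers, none of them at 0, summed to 1158 to 5567 CPM in TGFbi+RT+anti-PD-L1, 1134 to 2981 in TGFbi+RT, 1468 to 2742 in TGFbi, 679 to 6249.8 in RT and 470.4 to 6136 in Sham tumors. The library names carry the code A2301 for all Sham, TGFbi and TGFbi+RT tumors and 1 TGFbi+RT+anti-PD-L1 tumor, and A2304 for all RT tumors and the other 2 TGFbi+RT+anti-PD-L1 tumors, so radiation alone and the code can be told apart only through the TGFbi+RT+anti-PD-L1 group.

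Levels between genes were compared per kilobase of exon, as the mean over 15 tumors. The most abundant was Parp1, the enzyme that marks breaks with poly(ADP-ribose), at 52.2 CPM per kb, followed by Xrcc5, a Ku subunit, at 39.0, Rbbp8, which encodes the resection factor CtIP, at 29.2, Lig3, a DNA ligase, at 26.3, and Trp53bp1, which encodes the resection antagonist 53BP1, at 24.1. At the low end stood Nhej1, the end joining cofactor XLF, at 2.37 CPM per kb, Lig4, the ligase of classical end joining, at 2.52, Palb2, the bridge between BRCA1 and BRCA2, at 2.83, and Fanca, of the Fanconi core complex, at 3.40. Route medians were 20.7 CPM per kb for alternative end joining, 6.77 for homologous recombination, 5.54 for classical end joining and 12.0 for the checkpoint kinases. The checkpoint kinases spanned only 7.62 CPM per kb, for Chek1, to 12.7, for Atm. Polq, the polymerase that gives alternative end joining its signature, was the lowest gene of that route at 4.53 CPM per kb.

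**Figure D1:**
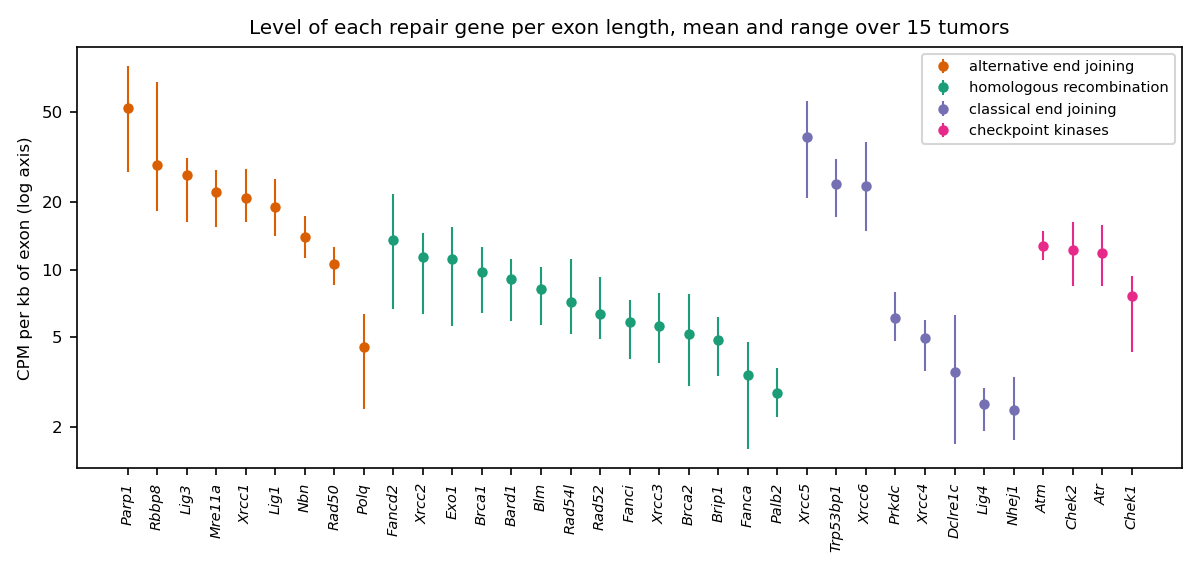
Level of each of the 35 repair genes in CPM per kb of exon on a log axis, with genes grouped by route and ordered by level. Points are means over the 15 tumors and lines run from the lowest to the highest tumor; Parp1 has the highest mean, 52.2, and Nhej1 the lowest, 2.37.

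Most repair genes were low in the same 4 tumors, 1 in each group but TGFbi. TGFbi+RT+anti-PD-L1 replicate 2 had the lowest level of 19 of the 35 genes (54.3%), whereas it had the lowest level of 14.0% of all genes tested, and Sham replicate 1 had the lowest level of another 6 (17.1%, against 7.73% of all genes). The most highest levels fell in Sham replicate 2, with 10 of the 35 (28.6%, against 14.6% of all genes), and in TGFbi replicate 2, with 7 (20%, against 5.83% of all genes). The mean over the 35 genes, on the log2 scale and relative to the mean of the 15 tumors, was -0.37 in TGFbi+RT+anti-PD-L1 replicate 2, -0.22 in TGFbi+RT replicate 3, -0.18 in RT replicate 1 and -0.32 in Sham replicate 1, and it lay between -0.079 and 0.24 in the other 11 tumors. Of the 35 genes, 28 lay below their own mean in TGFbi+RT+anti-PD-L1 replicate 2, 29 in TGFbi+RT replicate 3, 34 in RT replicate 1 and 32 in Sham replicate 1. The share of all genes below their own mean in these tumors was not computed, so these counts describe the 35 genes only. These 4 tumors were singled out after their values were seen. Among them, TGFbi+RT replicate 3 is a resubmitted library.

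The same 4 tumors were low in cell cycle genes that are not in the set. The mean of 24 S phase genes, on the same scale, was -0.59, -0.45, -0.14 and -0.43 in those tumors in the order just given, and the mean of 24 genes of the G2 and M phases was -0.63, -0.52, -0.16 and -0.26. The other 11 tumors had S phase means of -0.11 to 0.33 and G2 and M phase means of -0.079 to 0.45. The 4 low tumors were also among the 5 tumors with the highest fibroblast marker sums, and 2 of them were the richest in leukocyte RNA. Leukocyte markers summed to 3102 and 1819.6 CPM in TGFbi+RT+anti-PD-L1 replicate 2 and TGFbi+RT replicate 3, while no other tumor exceeded 629 CPM. Fibroblast markers summed to 5567, 2981, 6249.8 and 6136 CPM in the 4 tumors, although TGFbi+RT+anti-PD-L1 replicate 3, which was not among them, reached 4946 CPM. Epithelial markers summed to 888, 810.1, 860.1 and 1221 CPM in the 4 tumors, within the range of the other 11. Of those 11, only TGFbi+RT+anti-PD-L1 replicate 3, at 646 CPM, lay below 888 CPM. Krt5 alone gave 351, 347, 377 and 603 CPM of the sums in the 4 tumors. On the log2 scale used for the cell cycle lists, the mean of the epithelial list was 0.64, 0.32, 0.24 and 0.84. The 2 measures thus differ in where they place these tumors. The part of cell mixture and of proliferation in the repair gene levels was not tested, and in bulk tissue fewer tumor cells and less repair RNA per tumor cell cannot be told apart.

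**Figure D2:**
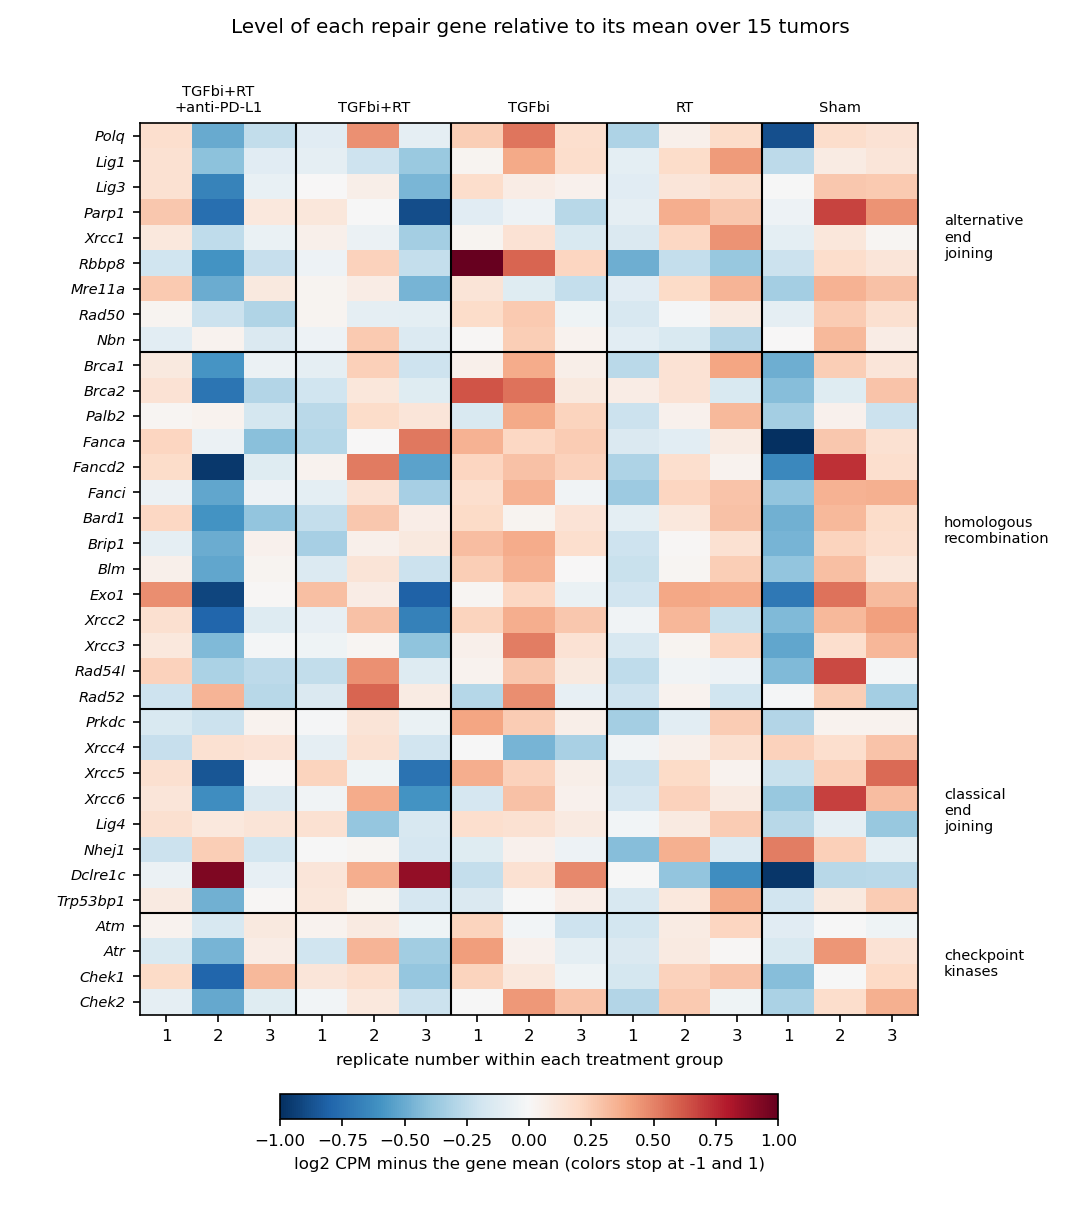
Each row is a repair gene and each column 1 tumor; color is log2 CPM minus the gene's mean over the 15 tumors, blue below and red above the mean, with colors stopping at -1 and 1. Columns of low values run through most rows in TGFbi+RT+anti-PD-L1 replicate 2, TGFbi+RT replicate 3, RT replicate 1 and Sham replicate 1, while Dclre1c is highest in the first 2 of these tumors.

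All 4 routes were below their own mean in each of those 4 tumors, and the mean of the classical end joining genes varied least. Within that route Dclre1c was highest in the 2 tumors where the Ku genes were lowest. Within groups, the SD of a route's mean log2 level was 0.22 for alternative end joining, 0.26 for homologous recombination, 0.12 for classical end joining and 0.22 for the checkpoint kinases. The mean log2 level of the alternative end joining list minus that of the homologous recombination list, relative to the mean of the 15 tumors, ranged over -0.017 to 0.043 in TGFbi+RT+anti-PD-L1, -0.16 to 0.12 in TGFbi+RT, -0.11 to 0.077 in TGFbi, -0.028 to 0.012 in RT and -0.038 to 0.27 in Sham tumors. All 5 ranges overlapped around 0, and the highest value belonged to Sham replicate 1. The alternative end joining list holds the resection genes Rbbp8, Mre11a, Rad50 and Nbn, and homologous recombination also starts from resected ends. The difference therefore compares RNA of the lists and does not measure which route repaired breaks.

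**Figure D3:**
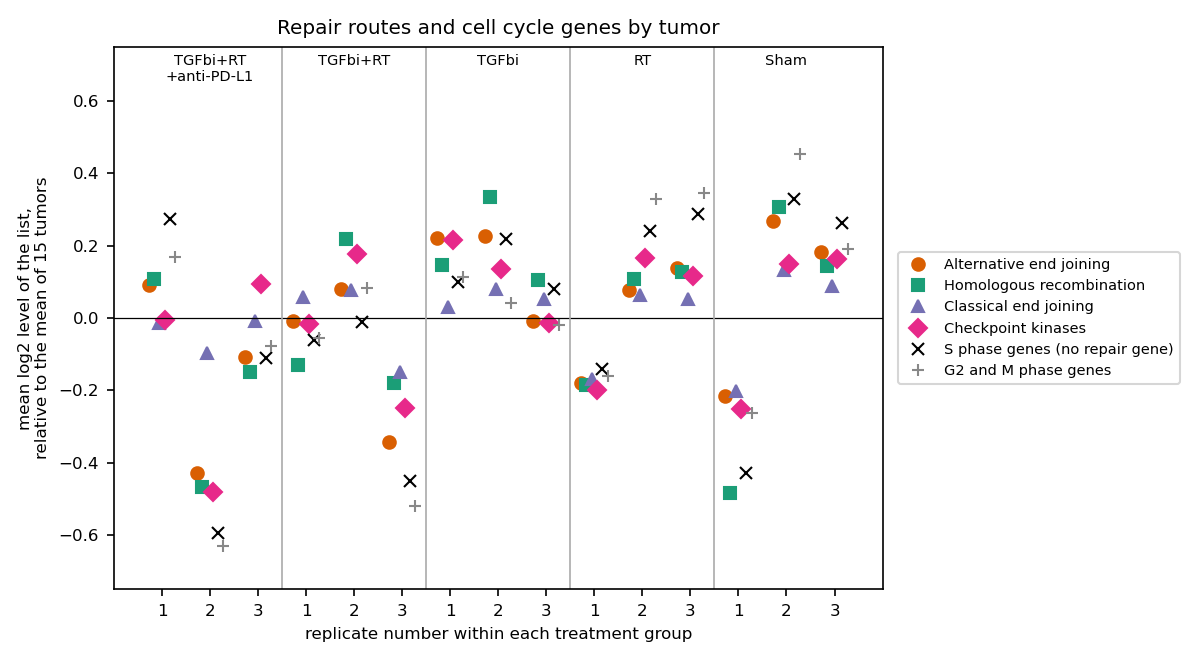
Mean log2 level of each route, of 24 S phase genes and of 24 genes of the G2 and M phases in each tumor, relative to the mean of the 15 tumors. Each symbol is 1 list in 1 tumor; routes and cell cycle lists sit low together, down to -0.63, in 1 tumor of each group but TGFbi.

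Of the alternative end joining genes, Rbbp8 varied most. Rbbp8 measured 93.5, 70.8 and 91.2 CPM in TGFbi+RT+anti-PD-L1 tumors, 103, 126 and 90.6 in TGFbi+RT, 267, 161 and 125 in TGFbi, 76.3, 91.0 and 82.6 in RT and 92.3, 121 and 117 in Sham tumors. All 3 TGFbi tumors lay above all 3 Sham tumors and the highest belonged to replicate 1, and the spread among the TGFbi tumors was the widest of any group. The 3 RT tumors lay below the 3 Sham tumors, with the nearest pair at 91.0 and 92.3 CPM. Here and for the genes below, the share of all genes whose groups separate fully was not computed.

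Polq measured 42.3, 26.6 and 31.8 CPM in TGFbi+RT+anti-PD-L1 tumors, 34.9, 51.8 and 35.4 in TGFbi+RT, 44.8, 54.5 and 42.3 in TGFbi, 30.5, 39.0 and 42.8 in RT and 20.5, 42.7 and 41.8 in Sham tumors. Polq was lowest in Sham replicate 1 and highest in TGFbi replicate 2, and the 5 groups overlapped. Parp1 measured 232, 114 and 208 CPM in TGFbi+RT+anti-PD-L1 tumors, 208, 192 and 104 in TGFbi+RT, 179, 186 and 159 in TGFbi, 181, 247 and 232 in RT and 186, 307 and 263 in Sham tumors. Parp1 was lowest in the 2 leukocyte-rich tumors and highest in Sham replicate 2.

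Lig1, the ligase that also seals replication fragments, averaged 61.4 ± 11.9 CPM in TGFbi+RT+anti-PD-L1, 56.8 ± 5.50 in TGFbi+RT, 76.0 ± 9.49 in TGFbi, 75.2 ± 13.5 in RT and 65.6 ± 9.19 in Sham tumors. Lig3, a ligase that works bound to XRCC1, averaged 138 ± 37.7 CPM in TGFbi+RT+anti-PD-L1, 143 ± 26.4 in TGFbi+RT, 165 ± 8.34 in TGFbi, 161 ± 16.1 in RT and 175 ± 18.4 in Sham tumors. Xrcc1, the scaffold of single-strand break repair, averaged 42.4 ± 5.22 CPM in TGFbi+RT+anti-PD-L1, 41.1 ± 5.52 in TGFbi+RT, 44.6 ± 4.50 in TGFbi, 50.5 ± 10.2 in RT and 44.8 ± 3.26 in Sham tumors. Both ligases and Xrcc1 had their lowest level in TGFbi+RT+anti-PD-L1 replicate 2 or TGFbi+RT replicate 3. The MRE11, RAD50 and NBN proteins form the complex that recognises ends and starts resection for both alternative end joining and homologous recombination. Mre11a, its nuclease, averaged 64.9 ± 16.7 CPM in TGFbi+RT+anti-PD-L1, 60.9 ± 11.9 in TGFbi+RT, 62.3 ± 8.15 in TGFbi, 72.7 ± 11.3 in RT and 71.7 ± 17.4 in Sham tumors. Rad50, its ATPase, averaged 48.5 ± 5.86 CPM in TGFbi+RT+anti-PD-L1, 52.1 ± 2.55 in TGFbi+RT, 59.5 ± 6.37 in TGFbi, 53.1 ± 4.52 in RT and 58.5 ± 6.97 in Sham tumors. Nbn, which ties it to ATM, averaged 32.7 ± 2.12 CPM in TGFbi+RT+anti-PD-L1, 35.2 ± 5.21 in TGFbi+RT, 36.9 ± 3.27 in TGFbi, 30.3 ± 2.00 in RT and 37.9 ± 4.51 in Sham tumors. Rad50 and Nbn were among the steadiest genes of the set, with highest-to-lowest ratios over the 15 tumors of 1.48 and 1.53, and 7.09% and 9.88% of all genes tested had smaller ones. Errors here and in what follows are SD over 3 tumors.

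**Figure D4:**
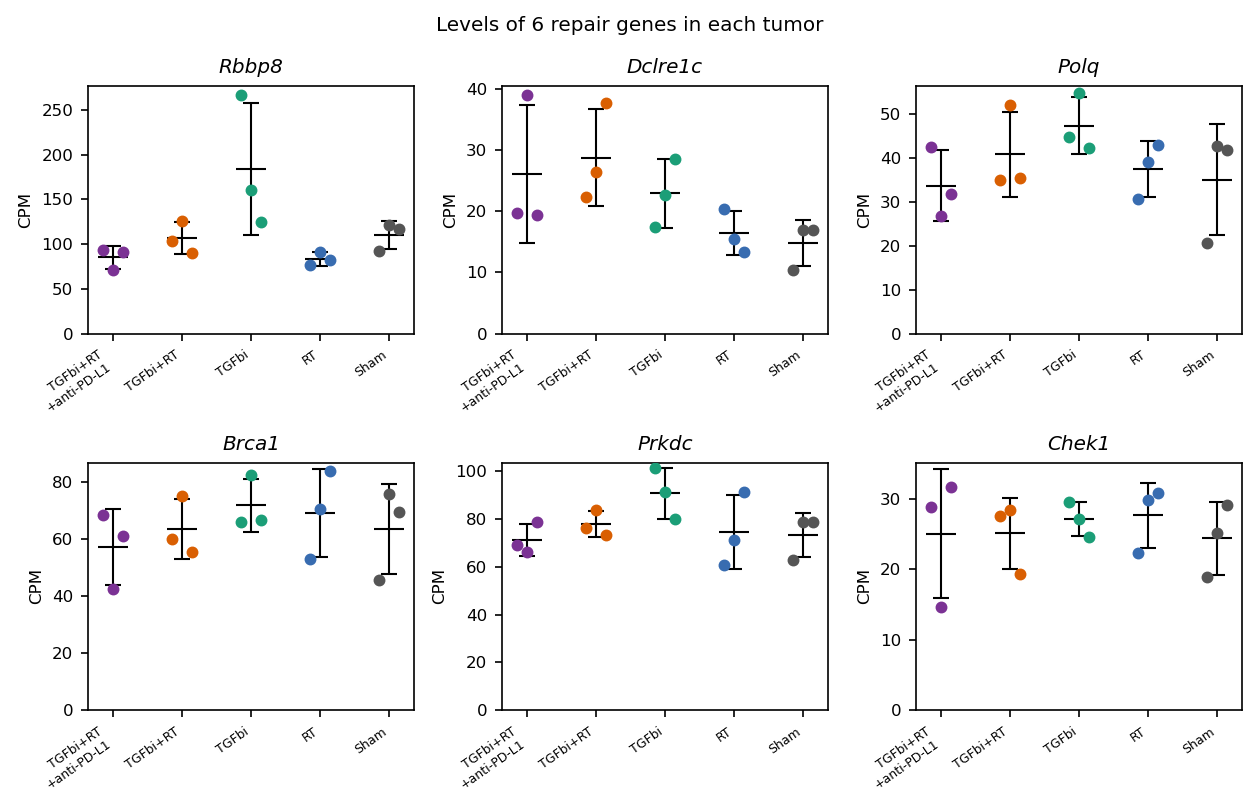
Level in CPM of 6 repair genes in each tumor, by treatment group; points are tumors, long bars are group means and whiskers are SD (n = 3). Rbbp8 reaches 267 CPM in TGFbi replicate 1 and Dclre1c 39.0 CPM in TGFbi+RT+anti-PD-L1 replicate 2, and for Polq, Brca1 and Chek1 the 5 groups overlap.

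Among the homologous recombination genes, BRCA1 and BARD1 form the ubiquitin ligase that promotes resection and BRCA2 acts on the strand that resection exposes. Brca1 measured 68.4, 42.4 and 61.3 CPM in TGFbi+RT+anti-PD-L1 tumors, 60.0, 75.4 and 55.4 in TGFbi+RT, 66.2, 82.7 and 66.7 in TGFbi, 52.9, 70.8 and 84.0 in RT and 45.6, 75.8 and 69.5 in Sham tumors. Brca2 measured 59.6, 32.5 and 44.0 CPM in TGFbi+RT+anti-PD-L1 tumors, 46.7, 58.1 and 49.5 in TGFbi+RT, 83.3, 78.3 and 57.5 in TGFbi, 56.6, 59.6 and 48.4 in RT and 40.0, 49.5 and 65.5 in Sham tumors. Brca1 overlapped between all groups, while the 2 highest Brca2 levels belonged to TGFbi replicates 1 and 2. Bard1 averaged 41.7 ± 12.7 CPM in TGFbi+RT+anti-PD-L1, 50.1 ± 8.72 in TGFbi+RT, 52.7 ± 2.94 in TGFbi, 52.4 ± 7.05 in RT and 50.2 ± 13.7 in Sham tumors. Palb2, which joins BRCA1 to BRCA2, averaged 10.2 ± 0.809 CPM in TGFbi+RT+anti-PD-L1, 10.7 ± 1.72 in TGFbi+RT, 11.7 ± 2.15 in TGFbi, 11.0 ± 2.06 in RT and 9.37 ± 1.30 in Sham tumors. Brip1, a helicase bound to BRCA1, averaged 29.6 ± 5.52 CPM in TGFbi+RT+anti-PD-L1, 32.0 ± 4.99 in TGFbi+RT, 40.4 ± 2.85 in TGFbi, 32.9 ± 4.09 in RT and 33.3 ± 8.02 in Sham tumors. Bard1 and Brip1, whose promoter windows are printed above, were both lowest in TGFbi+RT+anti-PD-L1 replicate 2.

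The Fanconi anemia genes act on cross-links and stalled forks and feed into homologous recombination. Fancd2 measured 70.6, 31.8 and 57.1 CPM in TGFbi+RT+anti-PD-L1 tumors, 63.8, 89.0 and 42.9 in TGFbi+RT, 72.1, 76.1 and 72.8 in TGFbi, 50.1, 69.8 and 63.7 in RT and 39.7, 103 and 69.9 in Sham tumors. Fancd2 spanned a 3.25-fold range, from TGFbi+RT+anti-PD-L1 replicate 2 to Sham replicate 2. Fanci, the partner of FANCD2, averaged 23.2 ± 4.07 CPM in TGFbi+RT+anti-PD-L1, 25.1 ± 4.15 in TGFbi+RT, 29.9 ± 4.02 in TGFbi, 28.0 ± 6.36 in RT and 29.3 ± 7.89 in Sham tumors. Fanca, of the core complex that modifies that pair, averaged 14.3 ± 3.06 CPM in TGFbi+RT+anti-PD-L1, 16.3 ± 4.78 in TGFbi+RT, 18.1 ± 0.910 in TGFbi, 14.4 ± 1.26 in RT and 14.0 ± 5.91 in Sham tumors. Fanca was lowest in Sham replicate 1 and highest in TGFbi+RT replicate 3.

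Exo1, the exonuclease of long-range resection, averaged 57.0 ± 25.1 CPM in TGFbi+RT+anti-PD-L1, 55.8 ± 20.0 in TGFbi+RT, 61.0 ± 5.85 in TGFbi, 67.8 ± 14.4 in RT and 64.7 ± 25.9 in Sham tumors. Blm, the Bloom helicase, which also takes part in resection, averaged 36.8 ± 7.62 CPM in TGFbi+RT+anti-PD-L1, 38.3 ± 4.96 in TGFbi+RT, 46.2 ± 5.51 in TGFbi, 40.8 ± 6.57 in RT and 41.1 ± 9.69 in Sham tumors. Exo1 had its lowest levels in TGFbi+RT+anti-PD-L1 replicate 2, TGFbi+RT replicate 3 and Sham replicate 1 at 31.0, 33.5 and 35.7 CPM. Xrcc2, a protein of recombination repair, averaged 30.7 ± 9.69 CPM in TGFbi+RT+anti-PD-L1, 32.9 ± 10.6 in TGFbi+RT, 43.1 ± 2.19 in TGFbi, 36.5 ± 7.28 in RT and 39.1 ± 11.4 in Sham tumors. Xrcc3, which also acts in recombination, averaged 12.4 ± 2.35 CPM in TGFbi+RT+anti-PD-L1, 12.2 ± 1.86 in TGFbi+RT, 15.8 ± 2.76 in TGFbi, 13.6 ± 1.77 in RT and 13.7 ± 3.91 in Sham tumors. Rad54l, the motor protein of strand exchange, averaged 20.3 ± 4.47 CPM in TGFbi+RT+anti-PD-L1, 22.6 ± 6.17 in TGFbi+RT, 23.8 ± 2.07 in TGFbi, 20.1 ± 1.61 in RT and 23.9 ± 9.44 in Sham tumors. These 3 had their highest levels in Sham replicate 3, TGFbi replicate 2 and Sham replicate 2. Rad52, an annealing protein, averaged 12.1 ± 3.01 CPM in TGFbi+RT+anti-PD-L1, 14.2 ± 3.76 in TGFbi+RT, 12.9 ± 3.61 in TGFbi, 11.3 ± 1.11 in RT and 12.2 ± 2.42 in Sham tumors. Rad52 was not low in TGFbi+RT+anti-PD-L1 replicate 2, which had 15.6 CPM, the third highest of the 15 values.

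In classical end joining, Prkdc encodes the catalytic subunit of DNA-PK, and BALB/c mice are known to carry variants of this gene that lower the level of its protein, which counts per gene do not show. Prkdc measured 68.9, 66.1 and 78.7 CPM in TGFbi+RT+anti-PD-L1 tumors, 76.0, 83.8 and 73.3 in TGFbi+RT, 101, 91.5 and 79.8 in TGFbi, 60.7, 71.3 and 91.4 in RT and 62.7, 78.6 and 78.5 in Sham tumors. The TGFbi tumors lay above the Sham tumors, although the nearest pair was 79.8 and 78.6 CPM. Xrcc5, the larger Ku subunit, averaged 86.2 ± 29.0 CPM in TGFbi+RT+anti-PD-L1, 88.1 ± 27.9 in TGFbi+RT, 113 ± 11.8 in TGFbi, 97.6 ± 13.6 in RT and 113 ± 30.3 in Sham tumors. Xrcc6, the smaller Ku subunit, averaged 42.7 ± 10.7 CPM in TGFbi+RT+anti-PD-L1, 47.3 ± 15.4 in TGFbi+RT, 50.8 ± 8.12 in TGFbi, 50.5 ± 6.91 in RT and 58.3 ± 20.3 in Sham tumors. Both Ku genes were lowest in TGFbi+RT+anti-PD-L1 replicate 2 and next lowest in TGFbi+RT replicate 3. Trp53bp1 averaged 171 ± 34.6 CPM in TGFbi+RT+anti-PD-L1, 183 ± 17.9 in TGFbi+RT, 181 ± 13.7 in TGFbi, 200.5 ± 37.3 in RT and 192 ± 29.3 in Sham tumors. Nhej1 averaged 1.96 ± 0.364 CPM in TGFbi+RT+anti-PD-L1, 1.95 ± 0.138 in TGFbi+RT, 1.95 ± 0.114 in TGFbi, 1.97 ± 0.555 in RT and 2.37 ± 0.491 in Sham tumors. Nhej1 rested on 21 to 48 counts per tumor, the fewest of the set.

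The ligase complex of classical end joining, Lig4 and its stabiliser Xrcc4, was expressed at a low level. Lig4 measured 11.4, 11.0 and 11.1 CPM in TGFbi+RT+anti-PD-L1 tumors, 11.3, 7.79 and 9.12 in TGFbi+RT, 11.4, 11.3 and 10.8 in TGFbi, 9.98, 10.9 and 12.2 in RT and 8.41, 9.58 and 7.85 in Sham tumors. Xrcc4 measured 6.47, 8.44 and 8.36 CPM in TGFbi+RT+anti-PD-L1 tumors, 7.14, 8.42 and 6.65 in TGFbi+RT, 7.56, 5.50 and 6.06 in TGFbi, 7.42, 7.87 and 8.50 in RT and 8.89, 8.51 and 9.27 in Sham tumors. Every TGFbi, RT and TGFbi+RT+anti-PD-L1 tumor had more Lig4 than every Sham tumor. Of the TGFbi+RT tumors, the one at 11.3 CPM lay above all Sham tumors, the one at 9.12 CPM within their range and the one at 7.79 CPM below it. Every TGFbi tumor had less Xrcc4 than every Sham tumor. As for Rbbp8, no share of all genes stands beside these separations, so they are descriptions only.

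Dclre1c encodes Artemis, the nuclease that opens DNA hairpins and trims ends for joining, and its order over the tumors differed from that of most of the set. Dclre1c measured 19.7, 39.0 and 19.3 CPM in TGFbi+RT+anti-PD-L1 tumors, 22.2, 26.4 and 37.6 in TGFbi+RT, 17.4, 22.7 and 28.6 in TGFbi, 20.4, 15.5 and 13.3 in RT and 10.4, 16.9 and 16.99 in Sham tumors. Its 2 highest levels belonged to the 2 leukocyte-rich tumors, TGFbi+RT+anti-PD-L1 replicate 2 and TGFbi+RT replicate 3, which were low in most other repair genes, and its lowest to Sham replicate 1. All TGFbi+RT+anti-PD-L1, TGFbi+RT and TGFbi tumors lay above all Sham tumors. Dclre1c shares 210 exon bases, 3.38% of its exon length, with Suv39h2 on the opposite strand, and the strand setting of the counting was not given in the sources used here. Suv39h2 measured 24.3, 20.6 and 22.4 CPM in TGFbi+RT+anti-PD-L1 tumors, 29.4, 28.3 and 20.6 in TGFbi+RT, 26.2, 25.4 and 27.3 in TGFbi, 21.6, 26.5 and 31.5 in RT and 14.6, 32.3 and 22.2 in Sham tumors. Suv39h2 was not highest in the tumors where Dclre1c was, and it had 20.6 and 20.6 CPM in the 2 leukocyte-rich tumors. Of the other genes, 7 share exon bases with a gene on the opposite strand, at most 17.1% of the exon length for Fanca with Zfp276, so reads of these pairs cannot be told apart without the strand setting. Zfp276 was highest in TGFbi+RT replicate 3 at 19.0 CPM, where Fanca was also highest at 21.6 CPM. In TGFbi+RT+anti-PD-L1 replicate 2 Zfp276 had 18.7 CPM and Fanca 14.4 CPM. The part of Zfp276 reads in the Fanca level was not tested.

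Atm measured 155, 135 and 163 CPM in TGFbi+RT+anti-PD-L1 tumors, 156, 162 and 147 in TGFbi+RT, 177, 149 and 132 in TGFbi, 133, 161 and 176 in RT and 139.8, 151 and 147 in Sham tumors. Atm, the kinase that responds to breaks, was the steadiest of the 35 genes, with a highest-to-lowest ratio of 1.34, and 1.67% of all genes tested had a smaller one. Chek1 measured 28.9, 14.6 and 31.7 CPM in TGFbi+RT+anti-PD-L1 tumors, 27.5, 28.4 and 19.4 in TGFbi+RT, 29.5, 27.2 and 24.6 in TGFbi, 22.4, 29.8 and 30.8 in RT and 18.8, 25.2 and 29.1 in Sham tumors. Chek1, the kinase downstream of ATR, was lowest in TGFbi+RT+anti-PD-L1 replicate 2, and all groups overlapped. Atr, the kinase of stalled forks and resected ends, averaged 83.7 ± 15.3 CPM in TGFbi+RT+anti-PD-L1, 91.5 ± 24.2 in TGFbi+RT, 103 ± 19.9 in TGFbi, 93.1 ± 7.53 in RT and 105 ± 21.7 in Sham tumors. Chek2, the kinase downstream of ATM, averaged 23.01 ± 3.54 CPM in TGFbi+RT+anti-PD-L1, 26.2 ± 2.92 in TGFbi+RT, 32.1 ± 4.82 in TGFbi, 26.8 ± 5.17 in RT and 28.9 ± 6.57 in Sham tumors.

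Differences between groups were tested with edgeR in 1 fit to the 15 tumors, with p-values adjusted over all 16017 genes tested and a threshold of 0.05. No repair gene passed in any of the 9 contrasts or in the test for any difference among the 5 groups. The numbers below therefore give, for each comparison, the size and error of the differences and the count of genes with an unadjusted p below 0.05, beside the share of all genes that reached each mark. Fold changes are log2 values ± standard error, the first-named group over the second, and a positive value means a higher level in the first.

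The comparison of TGFbi with Sham tumors asks what the inhibitor did without radiation. The resection gene Rbbp8 and the recombination genes had mostly higher means in TGFbi tumors and Xrcc4 a lower one, and none of these differences passed the threshold. Rbbp8 averaged 184 ± 73.9 CPM in TGFbi tumors and 110.0 ± 15.5 CPM in Sham tumors (SD, n = 3 each), a log2 fold change of 0.74 ± 0.24 (SE, unadjusted p 0.00870, edgeR adjusted p 0.429). The fold change was 0.37 without TGFbi replicate 1. Lig4 had a fold change of 0.38 ± 0.17 (SE, unadjusted p 0.0445, edgeR adjusted p 0.581), and Xrcc4, its partner, -0.48 ± 0.19 (SE, unadjusted p 0.0242, edgeR adjusted p 0.508). Brca2 was at 0.50 ± 0.23 (SE, unadjusted p 0.0513, edgeR adjusted p 0.588). Dclre1c, added here after its values were seen, was at 0.64 ± 0.32 (SE, unadjusted p 0.0715, edgeR adjusted p 0.619). In all, 3 of the 35 genes reached an unadjusted p below 0.05 (8.57%), against 8.48% of all genes, and 0 passed, against 0.00624% of all genes. DESeq2 and limma-voom also passed 0, with unadjusted counts of 4 by DESeq2 and 4 by limma-voom.

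By direction, 22 of the 35 genes had a fold change above 0 and 13 below it. The median was 0.071 against -0.0099 over all genes tested. Of all genes, 51.4% lay below 0. Of the 14 homologous recombination genes, 12 were above 0 and 2 below, while alternative end joining split 4 to 5. The route medians were -0.0039 for alternative end joining, 0.16 for homologous recombination, -0.047 for classical end joining and 0.11 for the checkpoint kinases. Without Sham replicate 1 the medians were -0.013 for homologous recombination and -0.013 for the checkpoint kinases, and Polq was at 0.16. The genes reported in every comparison had fold changes of 0.43 ± 0.28 for Polq, 0.18 ± 0.24 for Brca1, 0.31 ± 0.16 for Prkdc, 0.063 ± 0.14 for Atm and 0.15 ± 0.27 for Chek1. Their edgeR adjusted p-values were 0.626 to 0.939. Of the 35 intervals (95%), 29 lay wholly between -1 and 1.

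Radiation alone, 7 days after 10 Gy, left no repair gene past the threshold. Nbn averaged 30.3 ± 2.00 CPM in RT tumors and 37.9 ± 4.51 CPM in Sham tumors, a fold change of -0.32 ± 0.14 (SE, unadjusted p 0.0409, edgeR adjusted p 0.999). It was the only gene of the 35 with an unadjusted p below 0.05 (2.86%), against 4.2% of all genes. The count that passed was 0, as it was for all genes (0%), and the unadjusted counts were 2 by DESeq2 and 2 by limma-voom, which passed 0 as well. Lig4 had a fold change of 0.35 ± 0.17 (SE, unadjusted p 0.0581, edgeR adjusted p 0.999), and Palb2 0.23 ± 0.21 (SE, unadjusted p 0.286, edgeR adjusted p 0.999). All 35 intervals (95%) lay between -1 and 1, from -0.97 to 0.89. Of the 35 fold changes, 16 were above 0 and 19 below. The median was -0.0097 against 0.014 over all genes tested, of which 47.8% lay below 0. In RT over Sham, the genes reported throughout had fold changes of 0.10 ± 0.28 for Polq, -0.40 ± 0.24 for Rbbp8, 0.12 ± 0.24 for Brca1, 0.024 ± 0.16 for Prkdc, 0.10 ± 0.14 for Atm and 0.18 ± 0.27 for Chek1 (edgeR adjusted p 0.999 in each case).

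No RT tumor shares its library code with a Sham tumor, so no value within a code exists for this comparison. With the code as a term, estimated through the TGFbi+RT+anti-PD-L1 tumors, the route medians of RT over Sham were 0.37 for alternative end joining, 0.39 for homologous recombination and 0.12 for classical end joining, against -0.12, -0.0070 and -0.071 without it, and again 0 of the 35 genes passed. The code term in that fit rests on the TGFbi+RT+anti-PD-L1 tumors, 1 of code A2301 and 2 of code A2304.

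Inhibitor and radiation together, set against Sham, gave fold changes below 0 for most of the 35 genes and above 0 for Dclre1c, with none past the threshold. Dclre1c averaged 28.7 ± 7.95 CPM in TGFbi+RT tumors and 14.8 ± 3.75 CPM in Sham tumors, a fold change of 0.96 ± 0.32 (SE, unadjusted p 0.0111, edgeR adjusted p 0.222). It was the 1 gene of the 35 with an unadjusted p below 0.05 (2.86%), against 15% of all genes. The count passing was 0, against 0% of all genes. The unadjusted counts were 1 by DESeq2 and 1 by limma-voom, and 0 passed by either. Parp1 averaged 168 ± 55.7 CPM in TGFbi+RT tumors and 252 ± 61.6 CPM in Sham tumors, a fold change of -0.58 ± 0.29 (SE, unadjusted p 0.0684, edgeR adjusted p 0.364), which was -0.35 without TGFbi+RT replicate 3. Lig3 was at -0.29 ± 0.19 (SE, unadjusted p 0.156, edgeR adjusted p 0.486) and -0.16 without TGFbi+RT replicate 3, and Xrcc4 at -0.26 ± 0.19 (SE, unadjusted p 0.182, edgeR adjusted p 0.515). By direction, 9 of the 35 genes had a fold change above 0 and 26 below it. The median was -0.10 against -0.010 over all genes tested. Of all genes, 51% lay below 0. By route, the medians were -0.17 for alternative end joining, -0.068 for homologous recombination, -0.17 for classical end joining and -0.049 for the checkpoint kinases. Fold changes of the genes reported throughout were 0.22 ± 0.28 for Polq, -0.043 ± 0.24 for Rbbp8, -0.00089 ± 0.24 for Brca1, 0.085 ± 0.16 for Prkdc, 0.087 ± 0.14 for Atm and 0.042 ± 0.27 for Chek1. Their edgeR adjusted p-values were 0.721 to 0.999.

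Cell cycle genes lay lower and leukocyte and adipocyte markers higher in the same comparison, with none past the threshold. Of the cell cycle lists, 23 of 24 S phase genes and 24 of 24 genes of the G2 and M phases had fold changes below 0, with medians of -0.28 and -0.30, and 0 of either list passed. The 13 leukocyte markers that could be tested, of 15, were all above 0, as were the 5 adipocyte markers, which summed to 30.3 to 172 CPM in TGFbi+RT tumors and 5.98 to 69.7 CPM in Sham tumors. The part of these cells in the repair gene values was not tested. Without the 2 leukocyte-rich tumors the fold change of Dclre1c was 0.71 and that of Parp1 -0.34.

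With the PD-L1 antibody added, the comparison with Sham again gave lower means for most repair genes and higher means for Dclre1c and Lig4, none past the threshold. Dclre1c averaged 26.0 ± 11.3 CPM in TGFbi+RT+anti-PD-L1 tumors and 14.8 ± 3.75 CPM in Sham tumors, a fold change of 0.82 ± 0.32 (SE, unadjusted p 0.0254, edgeR adjusted p 0.273), and without TGFbi+RT+anti-PD-L1 replicate 2 it was 0.38. With the library code as a term it was 0.42, and only 1 TGFbi+RT+anti-PD-L1 tumor shares the code of the Sham tumors. Lig4 averaged 11.2 ± 0.221 CPM in TGFbi+RT+anti-PD-L1 tumors and 8.61 ± 0.884 CPM in Sham tumors, a fold change of 0.38 ± 0.17 (SE, unadjusted p 0.0457, edgeR adjusted p 0.327). Rad50 was at -0.27 ± 0.13 (SE, unadjusted p 0.0679, edgeR adjusted p 0.374), and Lig3 at -0.34 ± 0.19 (SE, unadjusted p 0.105, edgeR adjusted p 0.433), or -0.16 without TGFbi+RT+anti-PD-L1 replicate 2. In all, 2 of the 35 genes reached an unadjusted p below 0.05 (5.71%), against 14.9% of all genes. The count passing was 0, against 0% of all genes. Unadjusted counts were 2 by DESeq2 and 2 by limma-voom, and 0 passed by either. By direction, 6 of the 35 genes had a fold change above 0 and 29 below it. The median was -0.18 against -0.0043 over all genes tested. Of all genes, 50.5% lay below 0. All 9 alternative end joining genes and 12 of the 14 homologous recombination genes were below 0, as were 20 of 24 S phase genes and 24 of 24 genes of the G2 and M phases. In the same comparison all 13 leukocyte markers tested, 7 of 8 fibroblast markers and all 5 adipocyte markers were above 0, and the part of those cells in the repair gene values was not tested. Medians of the routes were -0.21 for alternative end joining, -0.18 for homologous recombination, -0.18 for classical end joining and -0.14 for the checkpoint kinases. The values of the genes reported throughout were -0.057 ± 0.28 for Polq, -0.37 ± 0.24 for Rbbp8, -0.15 ± 0.24 for Brca1, -0.041 ± 0.16 for Prkdc, 0.051 ± 0.14 for Atm and 0.038 ± 0.27 for Chek1 (edgeR adjusted p 0.483 to 0.957).

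TGFbi+RT against RT asks what the inhibitor added to radiation. The TGFbi+RT means were higher for Dclre1c and lower for Lig1, and neither difference passed the threshold. Dclre1c averaged 28.7 ± 7.95 CPM in TGFbi+RT tumors and 16.4 ± 3.60 CPM in RT tumors, a fold change of 0.81 ± 0.32 (SE, unadjusted p 0.0272, edgeR adjusted p 0.479), with no overlap between the groups. Lig1 averaged 56.8 ± 5.50 CPM in TGFbi+RT tumors and 75.2 ± 13.5 CPM in RT tumors, a fold change of -0.40 ± 0.18 (SE, unadjusted p 0.0425, edgeR adjusted p 0.504), and the groups overlapped slightly, with a highest TGFbi+RT level of 62.0 CPM and a lowest RT level of 61.7 CPM. Xrcc1 was at -0.30 ± 0.17 (SE, unadjusted p 0.0988, edgeR adjusted p 0.561), and Nbn at 0.22 ± 0.14 (SE, unadjusted p 0.148, edgeR adjusted p 0.604). The unadjusted count was 2 of 35 (5.71%), against 9.62% of all genes. The count passing was 0, against 0%. Unadjusted counts were 2 by DESeq2 and 1 by limma-voom, and 0 passed by either. By direction, 9 of the 35 genes had a fold change above 0 and 26 below it. The median was -0.093 against 0.0020 over all genes tested. Of all genes, 49.8% lay below 0. The route medians were -0.17 for alternative end joining, -0.078 for homologous recombination, -0.10 for classical end joining and -0.029 for the checkpoint kinases, and the S phase list had a median of -0.35. For the genes reported throughout the values were 0.12 ± 0.28 for Polq, 0.36 ± 0.24 for Rbbp8, -0.12 ± 0.24 for Brca1, 0.061 ± 0.16 for Prkdc, -0.016 ± 0.14 for Atm and -0.14 ± 0.27 for Chek1. Their edgeR adjusted p-values were 0.612 to 0.973. These 2 groups carry different library codes throughout, and only the TGFbi+RT+anti-PD-L1 tumors, which hold both codes, separate the inhibitor from the code. With the code as a term, the medians were -0.56 for alternative end joining and -0.42 for homologous recombination, and Dclre1c was at 1.38 (edgeR adjusted p 0.426).

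Adding the antibody to TGFbi+RT gave no repair gene an unadjusted p below 0.05. The count of 0 held by edgeR, DESeq2 and limma-voom, against 1.99% of all genes by edgeR, and 0 passed, against 0%. Lig4 had a fold change of 0.25 ± 0.17 (SE, unadjusted p 0.169, edgeR adjusted p 1.000), and Bard1 -0.27 ± 0.24 (SE, unadjusted p 0.284, edgeR adjusted p 1.000). By direction, 9 of the 35 genes had a fold change above 0 and 26 below it. The median was -0.10 against 0.027 over all genes tested. Of all genes, 45.3% lay below 0. Across routes, the medians were -0.046 for alternative end joining, -0.13 for homologous recombination, -0.066 for classical end joining and -0.083 for the checkpoint kinases. Among the genes reported throughout, fold changes were -0.28 ± 0.28 for Polq, -0.33 ± 0.24 for Rbbp8, -0.15 ± 0.24 for Brca1, -0.13 ± 0.16 for Prkdc, -0.036 ± 0.14 for Atm and -0.0031 ± 0.27 for Chek1 (edgeR adjusted p 1.000 in each case). With the library code as a term the median of alternative end joining was 0.21. Of the 35 intervals (95%), 34 lay between -1 and 1.

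Pooling the 6 tumors that received the inhibitor without antibody (TGFbi+RT and TGFbi) against the 6 that did not (RT and Sham) gives the main effect of the inhibitor. All 6 inhibitor-treated tumors carry the library code A2301, while the RT tumors on the other side carry A2304. The inhibitor is therefore partly mixed with the code in this contrast. Rbbp8 and Dclre1c had the smallest adjusted p-values. Rbbp8 averaged 145 ± 64.1 CPM in inhibitor-treated tumors and 96.6 ± 18.2 CPM in the others (SD, n = 6 each), a fold change of 0.55 ± 0.17 (SE, unadjusted p 0.00651, edgeR adjusted p 0.192), and 0.36 without TGFbi replicate 1. Dclre1c averaged 25.8 ± 6.93 CPM in inhibitor-treated tumors and 15.6 ± 3.41 CPM in the others, a fold change of 0.72 ± 0.23 (SE, unadjusted p 0.00776, edgeR adjusted p 0.196). For Parp1 the fold change was -0.46 ± 0.21 (SE, unadjusted p 0.0454, edgeR adjusted p 0.335), and for Xrcc4 -0.29 ± 0.13 (SE, unadjusted p 0.0483, edgeR adjusted p 0.342). All 4 had ranges that overlapped between the pooled sets. They are the 4 of 35 genes (11.4%) with an unadjusted p below 0.05, against 14.3% of all genes. The count passing was 0, against 0.0312% of all genes. Unadjusted counts were 4 by DESeq2 and 4 by limma-voom, and 0 passed by either.

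By direction, 20 of the 35 genes had a fold change above 0 and 15 below it. The median was 0.023 against -0.0089 over all genes tested. Of all genes, 51.3% lay below 0. By route, the medians were -0.10 for alternative end joining, 0.056 for homologous recombination, -0.092 for classical end joining and 0.015 for the checkpoint kinases. The remaining genes reported throughout stood at 0.28 ± 0.20 for Polq, 0.027 ± 0.17 for Brca1, 0.19 ± 0.11 for Prkdc, 0.024 ± 0.10 for Atm and 0.0065 ± 0.19 for Chek1. Their edgeR adjusted p-values were 0.464 to 0.991. Of the 35 intervals (95%), 34 lay between -1 and 1. With the library code as a term, Brca1 was at -0.17, Atm at -0.0072 and Chek1 at -0.15. Over the alternative settings, which include that term, Polq was at 0.0094 to 0.36 and Xrcc4 at -0.36 to -0.10. Over the same settings Rbbp8 was at 0.36 or above, Dclre1c at 0.50 or above and Parp1 at -0.30 or below.

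Pooling by radiation, TGFbi+RT and RT against TGFbi and Sham, gave its smallest p-value to Rbbp8. Rbbp8 averaged 94.99 ± 17.7 CPM in irradiated tumors and 147 ± 62.6 CPM in the others (SD, n = 6 each), a fold change of -0.59 ± 0.17 (SE, unadjusted p 0.00401, edgeR adjusted p 0.782), and -0.41 without TGFbi replicate 1. With the library code as a term Rbbp8 was at -0.49, and the median of alternative end joining was 0.091 in place of -0.12. Nbn was at -0.19 ± 0.10 (SE, unadjusted p 0.0742, edgeR adjusted p 0.782), Rad50 at -0.16 ± 0.10 (SE, unadjusted p 0.108, edgeR adjusted p 0.786), and Xrcc5 at -0.29 ± 0.20 (SE, unadjusted p 0.183, edgeR adjusted p 0.810). Rbbp8 was the 1 gene of 35 with an unadjusted p below 0.05 (2.86%), against 6.12% of all genes. The count passing was 0, against 0%. Unadjusted counts were 1 by DESeq2 and 1 by limma-voom, and 0 passed by either. By direction, 9 of the 35 genes had a fold change above 0 and 26 below it. The median was -0.12 against 0.014 over all genes tested. Of all genes, 47.6% lay below 0. Medians of the routes were -0.12 for alternative end joining, -0.15 for homologous recombination, -0.037 for classical end joining and -0.070 for the checkpoint kinases. Other genes reported throughout had fold changes of -0.057 ± 0.20 for Polq, -0.027 ± 0.17 for Brca1, -0.10 ± 0.11 for Prkdc, 0.063 ± 0.10 for Atm and 0.035 ± 0.19 for Chek1 (edgeR adjusted p 0.873 to 0.978). All 35 intervals (95%) lay between -1 and 1.

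**Figure D5:**
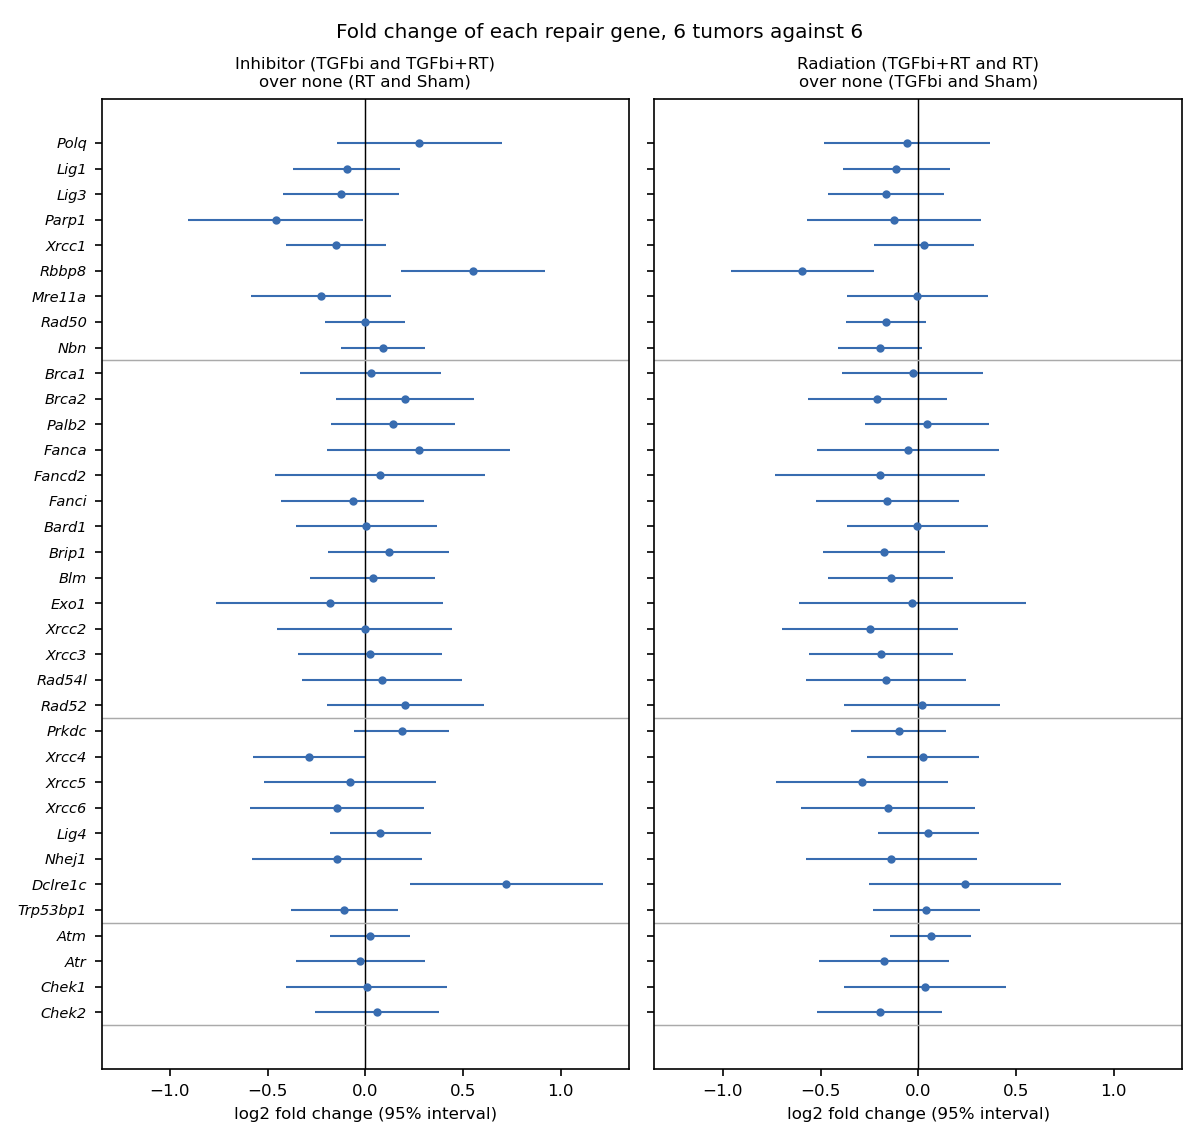
Log2 fold change of each repair gene with its 95% interval from the edgeR fit, for inhibitor-treated over other tumors on the left and for irradiated over other tumors on the right, 6 tumors on each side. Rbbp8 lies at 0.55 on the left and -0.59 on the right, Dclre1c at 0.72 on the left, and most other intervals include 0; no gene passed after adjustment over all genes.

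The interaction asks whether the inhibitor acted differently with radiation than without it, and no repair gene passed. Lig4 had an interaction of -0.60 ± 0.24 (SE, unadjusted p 0.0262, edgeR adjusted p 1.000), and Lig1 of -0.62 ± 0.25 (SE, unadjusted p 0.0302, edgeR adjusted p 1.000), each a difference between 2 log2 fold changes. For Lig4 the inhibitor fold change was 0.38 ± 0.17 without radiation, while TGFbi+RT against RT gave -0.22 ± 0.17. Brca2 was at -0.59 ± 0.33 (SE, unadjusted p 0.0945, edgeR adjusted p 1.000), and Xrcc4 at 0.38 ± 0.27 (SE, unadjusted p 0.174, edgeR adjusted p 1.000). The 2 genes with an unadjusted p below 0.05 make 5.71% of the 35, against 3.8% of all genes. The count passing was 0, against 0%. Unadjusted counts were 2 by DESeq2 and 2 by limma-voom, and 0 passed by either. The genes reported throughout had interactions of -0.31 ± 0.39 for Polq, -0.39 ± 0.34 for Rbbp8, -0.30 ± 0.33 for Brca1, -0.25 ± 0.23 for Prkdc, -0.079 ± 0.19 for Atm and -0.29 ± 0.38 for Chek1. Their edgeR adjusted p-values were 1.000 in each case. Only 17 of the 35 intervals (95%) lay between -1 and 1, the fewest of the 9 contrasts. Among the groups of this contrast only RT carries the library code A2304. The code and the interaction can therefore be told apart only through the TGFbi+RT+anti-PD-L1 tumors. Over the alternative settings, which include the code as a term, Lig4 was at -0.76 to -0.49 and Lig1 at -1.02 to -0.48. Brca2 was at -1.23 to -0.44 and Polq at -0.85 to -0.040.

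The test for any difference among the 5 groups again put Rbbp8 first, at an edgeR p of 0.00179 before adjustment and 0.294 after it. DESeq2's likelihood ratio test called it, with an adjusted p of 0.00209, whereas limma-voom gave 0.574. Dclre1c had a p of 0.0459 before adjustment and of 0.450 after it, Brca2 an adjusted p of 0.526, and Lig1 of 0.594, all by edgeR. Polq, Brca1, Prkdc, Atm and Chek1 had edgeR adjusted p-values of 0.769, 0.873, 0.671, 0.976 and 0.974. The unadjusted count was 2 of 35 (5.71%), against 10.8% of all genes, and 0 passed by edgeR, against 0%; DESeq2 passed 1 and limma-voom 0, with unadjusted counts of 2 by DESeq2 and 2 by limma-voom.

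A companion list of 50 further break repair genes, among them RPA subunits and Fanconi anemia genes, gave 0 called genes in each of the 9 contrasts by edgeR. At an unadjusted p below 0.05 stood 1 of the 50 in TGFbi+RT+anti-PD-L1 over Sham, against 14.9% of all genes, 3 in TGFbi+RT over RT, against 9.62%, 2 in the inhibitor main effect, against 14.3%, and 3 in the interaction, against 3.8%. In the other 5 contrasts the count was 0, against shares of all genes between 1.99% and 15%. Its medians were 0.11 for TGFbi over Sham, 0.0050 for RT over Sham, -0.065 for TGFbi+RT over Sham and -0.095 for TGFbi+RT+anti-PD-L1 over Sham. Fen1, the flap endonuclease, had a fold change of 0.47 ± 0.23 (adjusted p of 0.609 by edgeR) in TGFbi over Sham and an interaction of -0.85 ± 0.33 (adjusted p of 1.000 by edgeR). Shfm1, which encodes the BRCA2 partner DSS1, was at -0.21 ± 0.076 (adjusted p of 0.242 by edgeR) in the inhibitor main effect. Mcm8, a helicase subunit that acts in homologous recombination, was at -0.53 ± 0.25 (adjusted p of 0.335 by edgeR) in TGFbi+RT+anti-PD-L1 over Sham.

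The 24 genes that p53 is known to activate were read as a further list. The tumor cells are Trp53 null, so these genes cannot report a p53 response of the tumor cells. The part of other cells in the levels of these 24 genes was not tested. The count passing by edgeR was 0 in each of the 9 contrasts, and their medians were -0.059 in RT over Sham, 0.12 in TGFbi+RT over Sham and 0.21 in TGFbi+RT+anti-PD-L1 over Sham. At an unadjusted p below 0.05 there were 0 of the 24 in RT over Sham, against 4.2% of all genes, and 1 in TGFbi+RT over Sham, against 15%. In TGFbi+RT+anti-PD-L1 over Sham there were 4 higher and 1 lower, or 5 of 24, against 14.9% of all genes. Eda2r, a receptor gene activated by p53, was at 2.73 ± 0.91 (adjusted p of 0.225 by edgeR) in TGFbi+RT+anti-PD-L1 over Sham, where its mean was 6.98 ± 7.58 CPM in TGFbi+RT+anti-PD-L1 tumors and 1.03 ± 0.806 CPM in Sham tumors. These TGFbi+RT+anti-PD-L1 tumors include the one richest in leukocyte RNA, and the part of those cells in the Eda2r level was not tested.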

How the data were processed

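Total RNA of the 15 tumors and 1 internal reference library was sequenced after ribosomal RNA depletion, per the labels' protocols. The authors deposited 1 table of read counts per gene, whole numbers that were not normalized; its column names mention Subread, per the file headers, and the genome build is GRCm38, per the submitters' processing notes. A separate annotation table from the authors gives the length of exon per gene and its coordinates. The annotation release is not given in the sources used here, and neither is the strand setting. Nothing in them says that the tumors of a group came from separate mice, so p-values measure the spread between these tumors. The 35 genes, the companion lists and the tests were chosen with earlier results of these data known.

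Counts were tested with edgeR 4.0.16 in R 4.3.3 (TMM scaling, filterByExpr, quasi-likelihood F test, 1 mean per group over the 15 tumors, no covariate), and p-values were adjusted by Benjamini-Hochberg over all 16017 genes tested, with 0.05 as the threshold. The internal reference entered no test. CPM values use TMM-scaled library sizes, and CPM per kb divides them by exon length. Standard errors are the fold change divided by the root of F. Precision rests on 11002869 to 17184023 counts per library. Fold changes with errors are given in each comparison for up to 4 genes with the smallest p and always for Polq, Rbbp8, Brca1, Prkdc, Atm and Chek1; companion genes named are among the 2 with the smallest p. Alternatives were DESeq2 1.42.0, limma-voom 3.58.1, RLE and upper quartile factors, no filter, only the groups compared, the replicate number or library code as a term, and leaving out the resubmitted libraries, the 2 leukocyte-rich tumors or each tumor in turn. The scripts were tested on simulated data. No pair of replicates agreed within sampling noise. Promoter motifs were matched as exact letters on both strands.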

Additional observations from a re-analysis of the deposited data

Results flagged for a closer look

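The series holds 1 further library, named an internal reference, of 9003730 counts, whose material the labels do not describe and which entered no comparison. Values below are CPM without scaling factors, from this library, which has no replicate. It was picked out where a repair gene exceeded the highest Sham tumor, which 6 of the 35 genes did. Xrcc3, a recombination protein, had 25.1 CPM in the reference library, against at most 16.9 CPM in Sham tumors and 18.6 CPM in any tumor. Rad52, an annealing protein, had 21.9 CPM, against at most 13.4 CPM in Sham tumors. Lig4, the ligase of classical end joining, had 20.1 CPM, against at most 8.80 CPM in Sham tumors. These 3 genes lay above all 15 tumors as well. Dclre1c had 33.5 CPM, against at most 17.1 CPM in Sham tumors, Fanca 18.3 CPM, against 16.8 CPM, and Atm 149.8 CPM, against 148 CPM. Of the 35 genes, 23 lay below all 15 tumors in this library. The shares of all genes above the Sham tumors or below all tumors in this library were not computed. These counts therefore do not set the repair genes apart from other genes.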

How the results depend on the processing

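Of 84 fold changes recomputed in 2100 values under the alternatives, 1994 kept their sign, 0 crossed the threshold of 0.05, and the smallest adjusted p was 0.0731. Across all comparisons and alternatives the count of repair genes passing remained 0, except that DESeq2 passed 1, Rbbp8, in the test for any difference among the 5 groups. Over all genes DESeq2 called 106, 1, 480, 624, 65, 1, 458, 0, 3 and 679 genes in the order of the report, where edgeR called 1 for TGFbi over Sham, 5 for the inhibitor and 0 elsewhere. The cause was not tested.

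The remaining 106 values, from 34 fold changes, changed sign, and the cause was not tested. DESeq2 gave, in TGFbi+RT over Sham, 0.0044 for Brca1. limma-voom gave, in TGFbi+RT over Sham, 0.026 for Brca1, in TGFbi+RT+anti-PD-L1 over Sham, 0.0071 for Polq and -0.022 for Chek1. RLE factors gave, in TGFbi+RT over Sham, 0.0097 for Brca1. Upper quartile factors gave, in TGFbi+RT over Sham, 0.016 for Rbbp8 and 0.058 for Brca1, in TGFbi+RT over RT, 0.023 for Atm. No filter on low counts gave, in the inhibitor main effect, -0.0068 for Chek1. Fitting only the groups of the contrast gave, in TGFbi+RT over Sham, 0.0081 for Brca1, in TGFbi+RT over RT, 0.0021 for Atm. The replicate block gave, in TGFbi+RT over Sham, 0.014 for Brca1, in TGFbi+RT+anti-PD-L1 over Sham, 0.0010 for Polq. The library code as a term gave, in RT over Sham, -0.048 for Prkdc, in TGFbi+RT+anti-PD-L1 over Sham, 0.28 for Polq and 0.10 for Brca1, in TGFbi+RT over RT, -0.41 for Polq, in TGFbi+RT+anti-PD-L1 over TGFbi+RT, 0.16 for Bard1, 0.057 for Polq, 0.11 for Brca1, 0.0051 for Atm and 0.20 for Chek1, in the inhibitor main effect, -0.17 for Brca1, -0.0072 for Atm and -0.15 for Chek1, in the radiation main effect, 0.21 for Polq and 0.17 for Brca1. Leaving out the 2 resubmitted libraries gave, in TGFbi+RT over Sham, 0.060 for Rbbp8 and 0.087 for Brca1, in TGFbi+RT over RT, 0.018 for Atm and 0.015 for Chek1. Leaving out the 2 leukocyte-rich tumors gave, in TGFbi+RT over Sham, 0.050 for Rbbp8 and 0.078 for Brca1, in TGFbi+RT+anti-PD-L1 over Sham, 0.067 for Polq and 0.0075 for Brca1, in TGFbi+RT over RT, 0.022 for Atm and 0.018 for Chek1, in TGFbi+RT+anti-PD-L1 over TGFbi+RT, 0.10 for Chek1, in the radiation main effect, 0.0050 for Brca1. Leaving out 1 tumor at a time gave, in TGFbi over Sham, -0.018 to 0.32 for Brca1, -0.060 to 0.17 for Atm and -0.0048 to 0.30 for Chek1. In RT over Sham the same gave -0.17 to 0.27 for Polq, -0.071 to 0.28 for Brca1 and -0.15 to 0.14 for Prkdc. In TGFbi+RT over Sham the same gave -0.057 to 0.38 for Polq, -0.19 to 0.048 for Rbbp8, -0.20 to 0.14 for Brca1, -0.021 to 0.13 for Prkdc and -0.12 to 0.18 for Chek1. In TGFbi+RT+anti-PD-L1 over Sham the same gave -0.33 to 0.11 for Polq, -0.35 to 0.0054 for Brca1, -0.15 to 0.0080 for Prkdc, -0.011 to 0.10 for Atm and -0.17 to 0.29 for Chek1. In TGFbi+RT over RT the same gave -0.10 to 0.23 for Polq, -0.30 to 0.037 for Brca1, -0.084 to 0.23 for Prkdc, -0.14 to 0.073 for Atm and -0.29 to 0.018 for Chek1. In TGFbi+RT+anti-PD-L1 over TGFbi+RT the same gave -0.31 to 0.026 for Brca1, -0.093 to 0.036 for Atm and -0.21 to 0.27 for Chek1. In the inhibitor main effect the same gave -0.072 to 0.11 for Brca1, -0.039 to 0.079 for Atm and -0.074 to 0.091 for Chek1. In the radiation main effect the same gave -0.20 to 0.025 for Polq, -0.13 to 0.043 for Brca1, -0.0030 to 0.12 for Atm and -0.045 to 0.093 for Chek1. In the inhibitor by radiation interaction the same gave -0.20 to 0.041 for Atm.

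Equal replicate numbers did not pair the tumors: the correlation of deviations from the group means was -0.58 to 0.67 over 30 pairs with the same number, 13 of them above 0.1. It was -0.53 to 0.69 over 60 pairs with other numbers, 27 of them above 0.1. With the replicate block, 0 repair genes passed. Of 908 recomputed route medians, 20 moved by more than the spread between tumors, 10 of them with the library code as a term. With that term the medians of alternative end joining and homologous recombination in TGFbi+RT over RT were -0.56 and -0.42, and the median of alternative end joining was 0.21 in TGFbi+RT+anti-PD-L1 over TGFbi+RT and 0.091 in the radiation main effect. Of the 36 route medians, 21 took both signs over the fits that each left out 1 tumor. For homologous recombination these fits gave -0.013 (without Sham replicate 1) to 0.32 (without Sham replicate 2) in TGFbi over Sham, -0.21 (without Sham replicate 1) to 0.12 (without Sham replicate 2) in RT over Sham, -0.27 (without Sham replicate 1) to 0.10 (without Sham replicate 2) in TGFbi+RT over Sham, -0.20 (without TGFbi+RT replicate 2) to 0.036 (without RT replicate 3) in TGFbi+RT over RT, -0.32 (without TGFbi+RT+anti-PD-L1 replicate 1) to 0.017 (without TGFbi+RT+anti-PD-L1 replicate 2) in TGFbi+RT+anti-PD-L1 over TGFbi+RT, -0.062 (without Sham replicate 1) to 0.14 (without Sham replicate 2) in the inhibitor main effect and -0.25 (without Sham replicate 1) to 0.0014 (without Sham replicate 2) in the radiation main effect. Using only libraries of code A2301, an alternative chosen after the data were seen, 0 repair genes passed in TGFbi over Sham and in TGFbi+RT over Sham. With 3 tumors a group, intervals of 95% in single contrasts reached beyond 1 for the most variable genes, so a log2 change of 1 in those genes lay within the interval.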
